A study of Anas platyrhynchos with 11 samples.

Results

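The mitochondrial ribosomal proteins of the duck were described here in Meissner corpuscles and in bill skin. They were taken as every gene of the deposited table whose name begins with MRPL or MRPS followed by a number. The rule found 65 genes among the 16823 of the table, of which 40 are named for the large subunit and 25 for the small subunit. Meissner corpuscles are touch receptors of the skin in which lamellar cells, related to Schwann cells, surround the ending of a sensory axon.

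RNA was sequenced from 5 libraries of Meissner corpuscles and 6 libraries of bill skin of Anas platyrhynchos, the mallard and Pekin duck. Corpuscles were aspirated by hand, 2 to 10 per library, and were sequenced with a NEBNext Single Cell/Low Input kit; their RNA had integrity numbers of 6.1 to 8.0. Skin cells from nearby tissue free of corpuscles were sequenced with the Kapa mRNA Hyper Prep kit, so the effect of tissue and that of the kit cannot be told apart. The libraries came from 3 independent isolations of skin, and which library came from which is not stated, nor are the strain, age and sex of the birds. No bird in either group is described as carrying a mutation or treatment, and since libraries of a group may share an isolation, the p-values measure the spread between these libraries only.

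The mitochondrial ribosome translates the few messages of the mitochondrial genome, which encode subunits of the respiratory chain and of ATP synthase. Its RNAs are made inside the organelle, whereas all of its proteins are encoded in the nucleus, made in the cytosol and imported. Many of these proteins have a bacterial counterpart and others occur only in mitochondria; the roles named below are those known from bacteria and mammals. Axon endings, like other sites of high energy demand, are known for holding many mitochondria.

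Total counts ran from 5766279 to 11886808 in the corpuscle libraries and from 13263776 to 20925841 in the skin libraries. The lowest count of any mitochondrial ribosomal gene in any library was 11, so all 65 entered the test. The biological coefficient of variation over all genes was 65.0% in corpuscles and 24.2% in skin. Corpuscles 4 and 5 and skin 5 and 6 lay on one side of the second principal component, which held 12.5% of the variance, and the other 7 libraries lay on the other side. All 7 axon and neuroendocrine markers were higher in corpuscles, whereas of 5 Schwann cell and lamellar markers 2 were lower and 3 did not pass the test. The 5 endothelial markers were lower in corpuscles, with a summed level of 29.4 to 86.6 CPM in corpuscles and 932 to 1277 CPM in skin, where CPM is the count scaled to the size of its library. The part of this difference in cell make-up in the results below was not tested, and in bulk samples fewer cells of a type and less RNA per cell cannot be told apart.

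Many of the mitochondrial ribosomal genes were higher in corpuscles. Without regard to gene length, 42 of the 65 rose and 4 fell at an adjusted p under 0.05 by edgeR's quasi-likelihood test with Benjamini-Hochberg adjustment over all 14638 genes tested, and 19 were not called. Among all genes tested 33.0% were higher and 23.5% were lower in corpuscles, so the 64.6% of these genes that rose stood above the background and the 6.15% that fell stood below it. The median log2 fold change, corpuscle over skin, was 1.39 over the 65 genes and 0.18 over all genes. Over 2-fold, 39 of the 65 rose, against 29.9% of all genes. In 35 of the 65 all 5 corpuscle libraries stood above all 6 skin libraries, and in 4 they stood below them; over all genes these shares were 22.3% and 19.0%, or 41.3% together. These genes are short, and with a correction for gene length 31 of the 65 rose and 9 fell, against 30.1% and 24.4% of all genes, with a median log2 fold change of 0.58. The summed level of the 65 genes was 3871 ± 355 CPM in corpuscles and 1622 ± 99.1 CPM in skin (SD, n = 5 and 6).

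**Figure D1:**
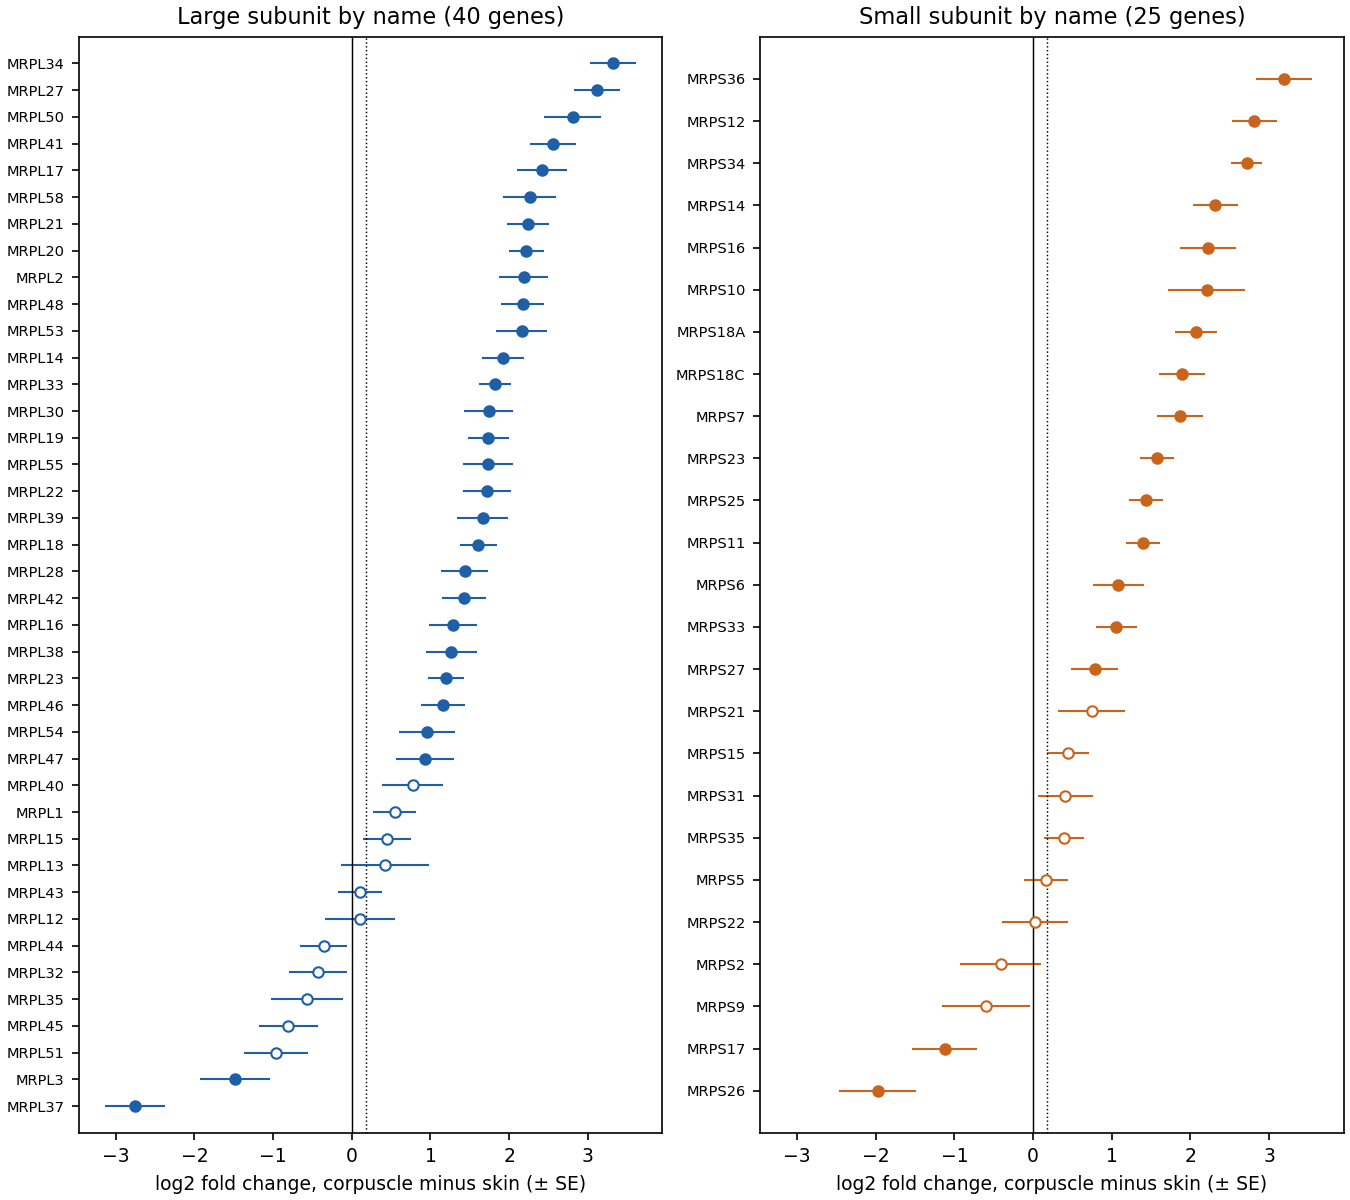
Log2 fold change, corpuscle over skin, of each of the 65 mitochondrial ribosomal genes, in one panel per subunit, with bars for the standard error, filled points for genes called by edgeR's quasi-likelihood test and open points for the others; a dotted line marks the median of all genes, 0.18. The 40 large-subunit genes run from -2.76 (MRPL37) to 3.32 (MRPL34), and the 25 small-subunit genes run from -1.98 (MRPS26) to 3.19 (MRPS36).

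Among the large-subunit genes the greatest rise was in MRPL34, the counterpart of a small basic bacterial protein. MRPL34 had 92.1, 146, 162, 78.2 and 162 CPM in corpuscles 1 to 5, against a lowest of 8.37, a median of 13 and a highest of 17.4 CPM in the 6 skin libraries. All 5 corpuscle libraries stood above every skin library, with a log2 fold change of 3.32 ± 0.29 (SE; edgeR adjusted p = 5.1e-07). MRPL27, whose bacterial counterpart reaches with its tail towards the peptidyl transferase centre, had 50.7, 43, 84.3, 48.4 and 76.6 CPM in corpuscles 1 to 5, against a lowest of 4.99, a median of 7.15 and a highest of 8.3 CPM in the 6 skin libraries. Its groups did not overlap either, with a log2 fold change of 3.12 ± 0.30 (SE; edgeR adjusted p = 1e-06). MRPL50, a protein found only in mitochondria, had 30.1, 50.1, 35.1, 30.3 and 40.4 CPM in corpuscles 1 to 5, against a lowest of 3.0, a median of 4.6 and a highest of 8.6 CPM in the 6 skin libraries. The lowest corpuscle library of MRPL50 was above the highest skin library, with a log2 fold change of 2.81 ± 0.36 (SE; edgeR adjusted p = 1.3e-05).

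MRPL41, another protein without a bacterial counterpart, had 63.1, 59.2, 51.7, 108 and 112 CPM in corpuscles 1 to 5, against a lowest of 11.2, a median of 13.7 and a highest of 16.1 CPM in the 6 skin libraries. Corpuscles 4 and 5 were the highest, and no corpuscle library reached down to the skin range, with a log2 fold change of 2.56 ± 0.29 (SE; edgeR adjusted p = 4.1e-06). MRPL17, whose bacterial counterpart lies near the exit of the peptide tunnel, averaged 83.7 ± 31.2 CPM in corpuscles and 15.7 ± 4.54 CPM in skin, with a log2 fold change of 2.42 ± 0.31 (SE; edgeR adjusted p = 1.4e-05). MRPL58, also known as ICT1, is a peptidyl-tRNA hydrolase built into the ribosome and is known for releasing peptides from stalled ribosomes. It averaged 51.2 ± 27 CPM in corpuscles and 10.6 ± 0.686 CPM in skin, with a log2 fold change of 2.27 ± 0.34 (SE; edgeR adjusted p = 4.4e-05). The groups of MRPL17 and MRPL58 did not overlap.

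Several large-subunit genes that rose were also among the most abundant per length. MRPL33, another counterpart of a small bacterial protein, was the most abundant of the 65 in both tissues at a mean of 255 CPM per kilobase in corpuscles and 72.2 CPM per kilobase in skin. MRPL33 had 111, 148, 158, 172 and 148 CPM in corpuscles 1 to 5, against a lowest of 35.2, a median of 40.1 and a highest of 49.6 CPM in the 6 skin libraries. Its groups did not overlap, with a log2 fold change of 1.82 ± 0.21 (SE; edgeR adjusted p = 4.3e-06). MRPL20 and MRPL21 are counterparts of bacterial proteins that bind the large ribosomal RNA. MRPL20 averaged 112 ± 22.8 CPM in corpuscles and 24.1 ± 2.39 CPM in skin, with a log2 fold change of 2.22 ± 0.23 (SE; edgeR adjusted p = 1.7e-06). MRPL21 averaged 137 ± 49.5 CPM in corpuscles and 29 ± 1.76 CPM in skin, with a log2 fold change of 2.24 ± 0.27 (SE; edgeR adjusted p = 6.7e-06). MRPL23, whose bacterial counterpart sits at the tunnel exit and is a docking site there, averaged 84.7 ± 21.5 CPM in corpuscles and 36.9 ± 3.82 CPM in skin, with a log2 fold change of 1.20 ± 0.23 (SE; edgeR adjusted p = 0.00048). For MRPL20, MRPL21 and MRPL23 too, every corpuscle library was above every skin library.

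In the small subunit the gene with the greatest rise was MRPS36, which in mammals is counted as a component of the 2-oxoglutarate dehydrogenase complex and not as a ribosomal protein. MRPS36 had 36, 48.2, 46.8, 95 and 85.2 CPM in corpuscles 1 to 5, against a lowest of 4.7, a median of 6.04 and a highest of 9.7 CPM in the 6 skin libraries. Every corpuscle library was above every skin library, with a log2 fold change of 3.19 ± 0.36 (SE; edgeR adjusted p = 3.9e-06). MRPS12, the counterpart of a bacterial protein of the decoding centre, had 86.6, 91.5, 86.1, 43.9 and 81.3 CPM in corpuscles 1 to 5, against a lowest of 7.81, a median of 11.2 and a highest of 14.3 CPM in the 6 skin libraries. Corpuscle 4 stood apart from the other corpuscles but was still above all skin libraries, with a log2 fold change of 2.81 ± 0.29 (SE; edgeR adjusted p = 1.8e-06). MRPS34, found only in mitochondria and mutated in a human mitochondrial translation disorder, had 231, 209, 241, 306 and 331 CPM in corpuscles 1 to 5, against a lowest of 34.9, a median of 40 and a highest of 45.5 CPM in the 6 skin libraries. The groups lay far apart, with a log2 fold change of 2.72 ± 0.20 (SE; edgeR adjusted p = 1.1e-07). MRPS34 made up 15.3 ± 1.26% of the small subunit's summed CPM per kilobase in corpuscles and 6.22 ± 0.614% in skin (SD, n = 5 and 6).

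Counterparts of bacterial small-subunit proteins made up most of the other small-subunit genes with a large rise. MRPS14 averaged 76.4 ± 27.7 CPM in corpuscles and 15.4 ± 2.37 CPM in skin, with a log2 fold change of 2.31 ± 0.29 (SE; edgeR adjusted p = 9.1e-06). MRPS16, mutated in a human mitochondrial translation disorder, averaged 83.9 ± 47.2 CPM in corpuscles and 18 ± 1.81 CPM in skin, with a log2 fold change of 2.22 ± 0.36 (SE; edgeR adjusted p = 8.7e-05). In MRPS16 corpuscle 3 was the lowest at 26.0 CPM and corpuscle 5 the highest at 157 CPM, and no skin library exceeded 21 CPM. MRPS10 had 23.3, 7.82, 14.5, 77.5 and 36.7 CPM in corpuscles 1 to 5, against a lowest of 4.81, a median of 7.21 and a highest of 8.34 CPM in the 6 skin libraries. Its corpuscle libraries differed widely and overlapped with skin, and the gene still passed the test, with a log2 fold change of 2.21 ± 0.49 (SE; edgeR adjusted p = 0.0013). MRPS18C averaged 35.9 ± 9.0 CPM in corpuscles and 9.69 ± 1.65 CPM in skin, and MRPS7 averaged 88.8 ± 40.4 CPM in corpuscles and 24.3 ± 1.24 CPM in skin. MRPS18C and MRPS7 rose, with log2 fold changes of 1.89 and 1.87, and their groups did not overlap. MRPS18A, which carries a small-subunit name but belongs to the large subunit in mammals, averaged 158 ± 63.5 CPM in corpuscles and 37.7 ± 4.31 CPM in skin, with a log2 fold change of 2.07 ± 0.27 (SE; edgeR adjusted p = 1.3e-05).

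MRPS23 and MRPS25, which have no bacterial counterpart, were among the most abundant small-subunit genes per length in both tissues. MRPS23 averaged 91.4 ± 13.5 CPM in corpuscles and 30.7 ± 2.87 CPM in skin, with a log2 fold change of 1.57 ± 0.22 (SE; edgeR adjusted p = 2.2e-05). MRPS25 averaged 95.9 ± 18.1 CPM in corpuscles and 35.4 ± 1.98 CPM in skin, with a log2 fold change of 1.44 ± 0.21 (SE; edgeR adjusted p = 4.6e-05). Every corpuscle library of MRPS23 and MRPS25 was above every skin library.

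**Figure D2:**
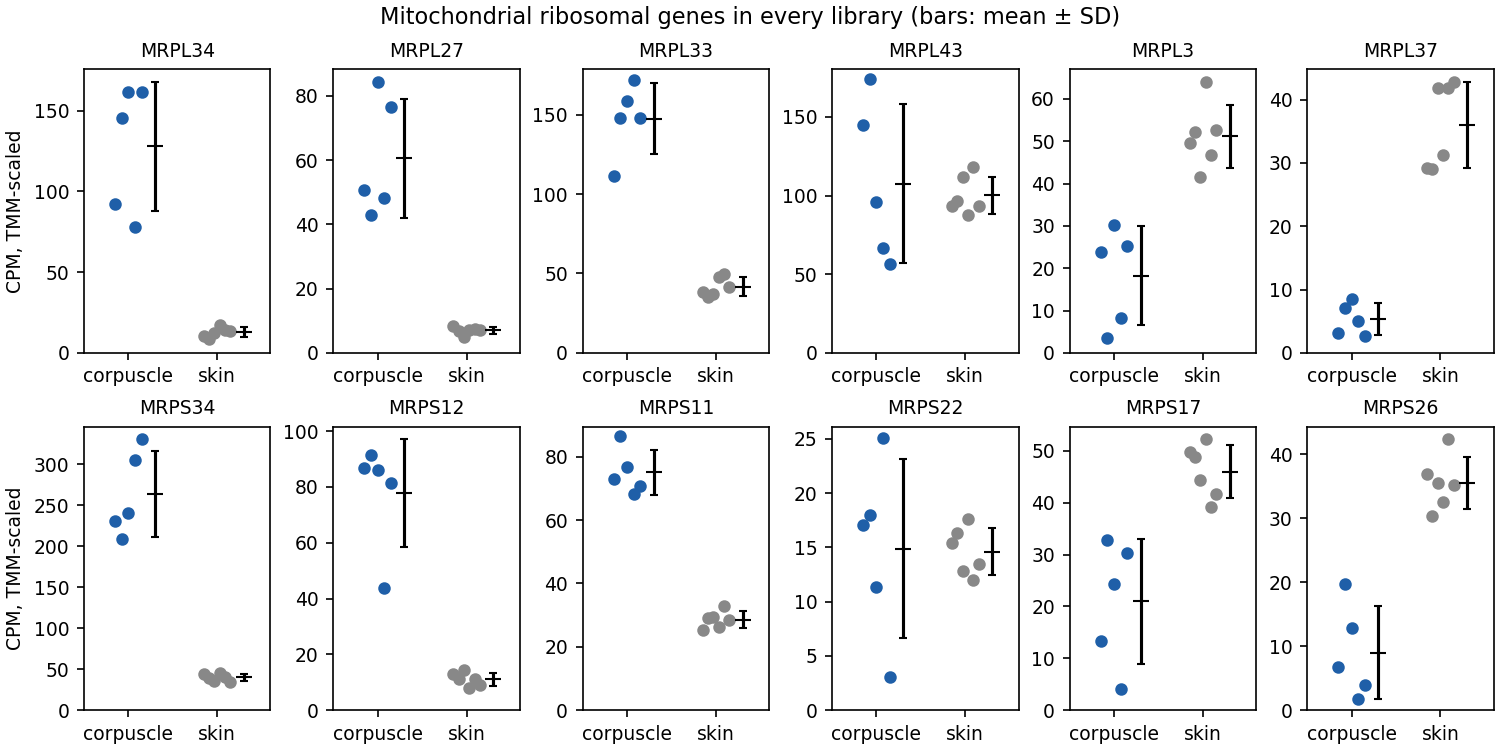
Level of 12 mitochondrial ribosomal genes in each library, in CPM on an axis from 0 for each gene, with the 5 corpuscle libraries left of the 6 skin libraries and the mean with its SD beside them. MRPL34 sits between 78.2 and 162 CPM in corpuscles and between 8.37 and 17.4 CPM in skin, and MRPL37 sits between 2.7 and 8.53 CPM in corpuscles and between 29.0 and 42.8 CPM in skin.

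The called genes that fell were MRPL37, MRPL3, MRPS26 and MRPS17. MRPL37 is a large-subunit protein found only in mitochondria. MRPL37 had 3.11, 7.16, 8.53, 5.07 and 2.7 CPM in corpuscles 1 to 5, against a lowest of 29, a median of 36.5 and a highest of 42.8 CPM in the 6 skin libraries. All corpuscle libraries were below all skin libraries, with a log2 fold change of -2.76 ± 0.38 (SE; edgeR adjusted p = 2.2e-05). MRPL37 had the lowest level per length of the 65 genes in corpuscles, at 3.55 CPM per kilobase, and 24.1 CPM per kilobase in skin. MRPL3, the counterpart of a bacterial protein close to the peptidyl transferase centre, had 23.8, 3.49, 30.3, 8.24 and 25.2 CPM in corpuscles 1 to 5, against a lowest of 41.6, a median of 50.9 and a highest of 64 CPM in the 6 skin libraries. Its corpuscle libraries differed widely among themselves but none reached the skin range, with a log2 fold change of -1.49 ± 0.45 (SE; edgeR adjusted p = 0.011). MRPS26, a small-subunit protein found only in mitochondria, had 6.75, 19.7, 12.8, 1.74 and 3.87 CPM in corpuscles 1 to 5, against a lowest of 30.4, a median of 35.4 and a highest of 42.3 CPM in the 6 skin libraries. Per length it stood at 11.5 CPM per kilobase in corpuscles and at 45.7 in skin, and its groups did not overlap, with a log2 fold change of -1.98 ± 0.49 (SE; edgeR adjusted p = 0.0031). MRPS17, a counterpart of a bacterial protein that binds the small ribosomal RNA, had 13.4, 32.9, 24.4, 4.12 and 30.4 CPM in corpuscles 1 to 5, against a lowest of 39.2, a median of 46.6 and a highest of 52.3 CPM in the 6 skin libraries. Its groups did not overlap, with a log2 fold change of -1.13 ± 0.41 (SE; edgeR adjusted p = 0.029). Without corpuscle 1, or without skin 1, 2 or 4, MRPS17 was not called, with an adjusted p of 0.054 to 0.062 by the same edgeR test.

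The 19 genes that were not called had log2 fold changes between -0.96 and 0.77, 7 of them below 0, and a missed threshold does not show that their levels were equal. MRPL43, found only in mitochondria, had 145, 174, 95.8, 66.9 and 56.6 CPM in corpuscles 1 to 5, against a lowest of 87.8, a median of 94.9 and a highest of 118 CPM in the 6 skin libraries. The skin range lay within the corpuscle range, with a log2 fold change of 0.11 ± 0.28 (SE; edgeR adjusted p = 0.76). MRPL12 forms the flexible stalk that binds translation factors. It averaged 18.7 ± 14.1 CPM in corpuscles and 17.3 ± 1.92 CPM in skin, with a log2 fold change of 0.10 ± 0.44 (SE; edgeR adjusted p = 0.85). MRPL45 sits at the tunnel exit in mammals and anchors the ribosome to the inner membrane. It averaged 15.6 ± 9.55 CPM in corpuscles and 27.4 ± 2.5 CPM in skin, with a log2 fold change of -0.81 ± 0.37 (SE, edgeR adjusted p = 0.076). Without corpuscle 1, its highest corpuscle at 31.6 CPM, MRPL45 was called lower at -1.25 (edgeR adjusted p = 0.0047). MRPL44, mutated in a human cardiomyopathy, averaged 36.7 ± 15 CPM in corpuscles and 47.1 ± 2.5 CPM in skin, and MRPL15 averaged 65 ± 26.4 CPM in corpuscles and 47.7 ± 3.95 CPM in skin. Without corpuscle 2, the lowest, MRPL15 was called higher at 0.66 (edgeR adjusted p = 0.016). MRPS2, the counterpart of a bacterial protein bound late in assembly, averaged 23.5 ± 14.7 CPM in corpuscles and 31.3 ± 5.25 CPM in skin, and corpuscle 5 was lowest at 1.44 CPM. MRPS22, mutated in a human mitochondrial disorder, averaged 14.9 ± 8.22 CPM in corpuscles and 14.6 ± 2.2 CPM in skin, and MRPS31 averaged 56.4 ± 33.1 CPM in corpuscles and 42.6 ± 6.12 CPM in skin. The log2 fold changes of MRPL44, MRPL15, MRPS2, MRPS22 and MRPS31 lay between -0.41 and 0.45, with overlapping groups.

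Of the genes named so far, MRPL21, MRPL33, MRPL37, MRPL43, MRPS2, MRPS18A, MRPS18C and MRPS25 overlap another coding gene in RefSeq's Pekin duck genes. The overlap is one of whole gene spans, without regard to exons or strand. With the strand setting of the counting not stated, whether reads of such overlapping genes were mixed is not known.

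Genes of both subunits rose. Of the 40 large-subunit genes 27 rose and 2 fell, with a median log2 fold change of 1.43. Of the 25 small-subunit genes 15 rose and 2 fell, with a median of 1.08. Among all genes tested 33.0% rose and 23.5% fell, with a median of 0.18. The median length was 924 bp in the large and 1137 bp in the small subunit. After the length correction described below, 19 of the 40 large-subunit genes rose and 7 fell, with a median of 0.68. Of the 25 small-subunit genes 12 then rose and 2 fell, with a median of 0.53. Over all genes 30.1% rose and 24.4% fell after that correction. Whether the counts of the subunits differ was not tested, since genes are not replicates. The summed level of the large-subunit genes was 2268 ± 211 CPM in corpuscles and 952 ± 61.6 CPM in skin, and that of the small-subunit genes was 1603 ± 175 CPM in corpuscles and 670 ± 38.3 CPM in skin (SD, n = 5 and 6). The ratio of the large to the small sum was 1.42 ± 0.112 in corpuscles and 1.42 ± 0.0249 in skin. All sums and medians of the subunits go by gene name, so the small subunit here holds MRPS18A and MRPS36. MRPS18A averaged 158 CPM in corpuscles and 37.7 CPM in skin, and MRPS36 averaged 62.2 and 6.83 CPM. Ratios with MRPS18A in the large sum and MRPS36 left out were not taken. Both genes rose more than the small-subunit sum did, so holding them there lowers the ratio more in corpuscles than in skin. The equal ratios of 1.42 thus hold for sums by gene name only. Divided by gene length, the large-subunit sum was 2503 ± 257 CPM per kilobase in corpuscles and 918 ± 70.5 in skin. The small-subunit sum was 1491 ± 188 CPM per kilobase in corpuscles and 563 ± 30.5 in skin. The ratio of these sums was 1.69 ± 0.142 in corpuscles and 1.63 ± 0.0519 in skin, and its range of 1.47 to 1.86 in corpuscles enclosed the range of 1.56 to 1.71 in skin.

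**Figure D3:**
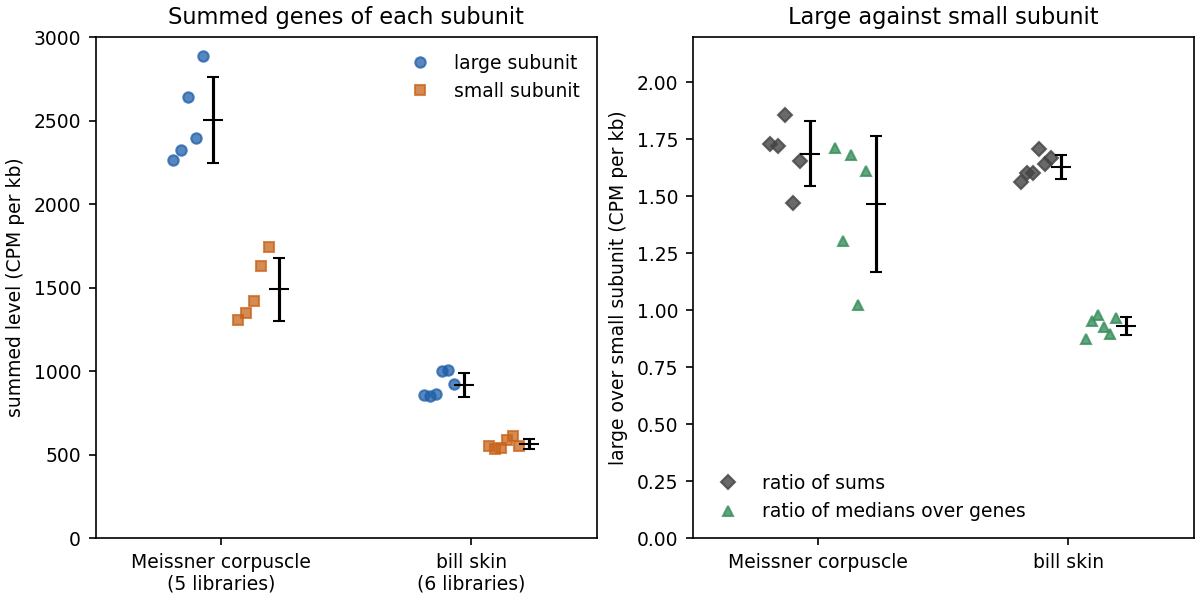
Summed level per kilobase of the large-subunit and the small-subunit genes, and the ratio of the large to the small sum, for each library, corpuscles left of skin, with the mean and its SD beside the points; the right panel also gives the ratio of the medians. The large-subunit sums lie between 2267 and 2886 CPM per kilobase in corpuscles and between 854 and 1005 in skin. The ratios of the sums, taken by gene name, overlap between the tissues.

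The middle of each subunit gave another picture than the sums. The ratio of the median large-subunit level to the median small-subunit level per kilobase was 1.47 ± 0.297 in corpuscles and 0.931 ± 0.0407 in skin (SD, n = 5 and 6). It lay between 1.02, in corpuscle 4, and 1.71 in corpuscles, and between 0.874 and 0.977 in skin, so the groups did not overlap. The ratio of medians was not taken after the length correction, and the subunits differ in median gene length as given above. The sums are carried in part by single abundant genes such as MRPS34, which the medians do not weigh.

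By the class of protein, 18 of the 25 large-subunit proteins with a bacterial counterpart rose and 1 fell, and their median was 1.72; MRPS18A is counted among them. Of the 16 large-subunit proteins found only in mitochondria 10 rose and 1 fell, with a median of 1.21. In the small subunit 8 of the 14 with a bacterial counterpart rose and 1 fell, with a median of 1.24, and of the 9 found only in mitochondria 5 rose and 1 fell, with a median of 0.78. Among all genes tested 33.0% rose and 23.5% fell. The classes had median lengths of 918 to 1146 bp, and genes of like length rose more often than all genes, as described below with gene length. Of all genes from 700 to under 1000 bp 52.1% rose, and of those from 1000 to under 1500 bp 46.9% rose. After the length correction described there, 13 of 25, 7 of 16, 7 of 14 and 3 of 9 rose in these classes. In the same order 3, 4, 1 and 1 fell. Over all genes 30.1% rose and 24.4% fell with that correction. Differences between the classes were not tested either.

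The order of the genes by level per length differed between the tissues. Spearman's rank correlation of the 65 levels per kilobase was 0.650 to 0.889 over the 10 pairs of corpuscle libraries and 0.877 to 0.972 over the 15 pairs of skin libraries. Over the 30 pairs of a corpuscle and a skin library it was 0.111 to 0.366. These are descriptions across 65 genes, which are not independent, and the libraries of a tissue share their kit. By level per kilobase, counted from the highest, MRPL34 had rank 3 in corpuscles and 42 in skin. MRPS26 had rank 58 in corpuscles and 4 in skin, and MRPL3 had rank 60 in corpuscles and 12 in skin. The highest gene stood 71.9-fold above the lowest in corpuscles and 11.9-fold above it in skin. The standard deviation of the log2 level per kilobase over the 65 genes was 1.54 in corpuscles and 0.83 in skin, and the 33 complex I subunits had 1.61 in corpuscles and 0.57 in skin. The libraries of a tissue also varied more in corpuscles. The coefficient of variation was higher in corpuscles for 62 of the 65 genes, with a median of 40.2% in corpuscles and 12.2% in skin. This was not particular to them, since over all genes tested the medians were 55.6% in corpuscles and 17.5% in skin.

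Gene length moved with the fold change. The 65 genes had a median length of 931 bp, against 3404 bp for all genes, and across them Spearman's rho between log2 fold change and length was -0.43; across all 14638 genes it was -0.16. Below 700 bp 11 of 13 mitochondrial ribosomal genes rose, with a median log2 fold change of 1.82, while 54.5% of all genes of that length rose, with a median of 1.15. From 700 to under 1000 bp 15 of 22 rose, with a median of 1.51, and 52.1% of all genes rose, with a median of 1.10. From 1000 to under 1500 bp 11 of 18 rose, with a median of 1.22, and 46.9% of all genes rose, with a median of 0.83. From 1500 to under 2000 bp 3 of 8 rose and 2 fell, with a median of 0.13, and 40.7% of all genes rose, with a median of 0.56. MRPS33, at 2000 to under 4000 bp, rose, and of MRPS35, MRPS18A and MRPL1, each of 4000 bp or more, MRPS18A rose. In each bin below 2000 bp the median of these genes lay closer to that of all genes than it did over the whole set, and among the 8 genes from 1500 bp it lay below it.

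**Figure D4:**
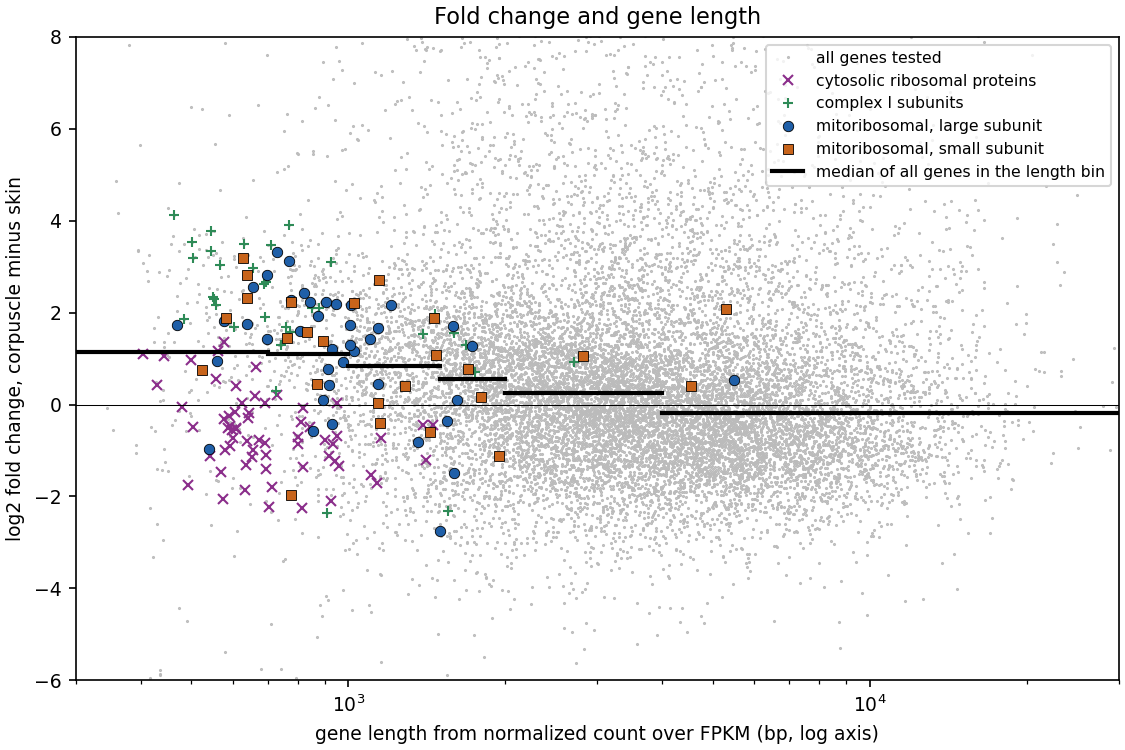
Log2 fold change, corpuscle over skin, against gene length on a log axis, for all genes tested in grey, the mitochondrial ribosomal genes by subunit, the cytosolic ribosomal genes and complex I, with bars at the median of all genes in each length bin; 163 genes lie outside the axes. The 65 genes lie towards the short end, at a median of 931 bp, and their fold changes fall with length (rho = -0.43).

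Before edgeR's quasi-likelihood test, the correction removed from each library a smooth trend on length of its deviation from the midpoint of the tissue means. Any difference between the tissues that moves with length is removed with it. Of the 42 genes that rose without the correction 30 still rose, and all 4 that fell still fell. The median log2 fold change of all genes was then 0.07. MRPL34 stood at a log2 fold change of 2.34, MRPS34 at 2.02 and MRPL27 at 2.16 after the correction. MRPL23 stood at 0.36 with an adjusted p of 0.19, and MRPS25 at 0.47 with an adjusted p of 0.07, by the same edgeR test, so neither was called. MRPL45 was called lower at -1.37 and MRPL44 at -0.85. MRPS18A, one of the few long genes at 5297 bp, was little changed at 2.26.

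Short genes of other complexes did not all rise. The cytosolic ribosomal proteins had a median length of 654 bp, and of 64 tested 7 rose and 37 fell, with a median log2 fold change of -0.70. The mitochondrial ribosomal genes summed to 12.3 ± 3.87% of the cytosolic ribosomal sum per kilobase in corpuscles and to 2.83 ± 0.334% in skin (SD, n = 5 and 6). RPL9 averaged 169 ± 56.3 CPM in corpuscles and 811 ± 127 CPM in skin, and RPL12 averaged 191 ± 31.6 CPM in corpuscles and 896 ± 136 CPM in skin, both cytosolic ribosomal proteins that fell. The nuclear-encoded subunits of respiratory complex I, the first enzyme of the respiratory chain, had a median length of 711 bp, and 30 of 33 rose and 2 fell, with a median of 2.10. NDUFA2 averaged 261 ± 75.8 CPM in corpuscles and 14.9 ± 2.11 CPM in skin, whereas the core subunit NDUFS3 fell, with a log2 fold change of -2.36. After the length correction 58 of 64 cytosolic ribosomal genes were lower, and 26 of 33 complex I genes were higher and 3 lower. Over all genes tested 33.0% rose and 23.5% fell, and with that correction 30.1% rose and 24.4% fell.

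**Figure D5:**
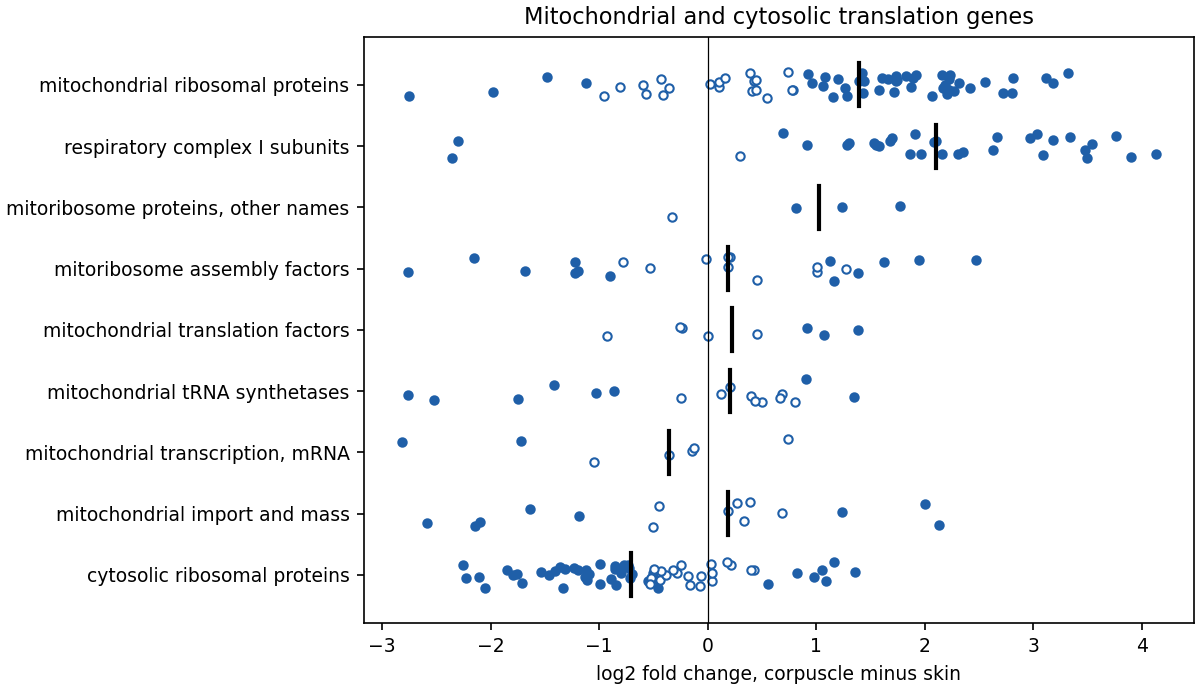
Log2 fold changes, corpuscle over skin, of the genes of each group related to the mitochondrial ribosome, with a line at each median, filled points for called genes and open points for the others. The median is 1.39 for the 65 mitochondrial ribosomal genes, 2.10 for complex I, 0.19 for the assembly factors and -0.70 for the cytosolic ribosomal proteins.

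The other groups of mitochondrial gene expression had lower median log2 fold changes than the ribosomal proteins, and whether the groups differ was not tested. Their genes were longer, with median lengths of 1569.5 to 2698.5 bp, against 931 bp. After the length correction the median was 0.58 for the 65 ribosomal genes and -0.21 for the assembly factors. It was then -0.02 for the synthetase and amidotransferase genes and -0.56 for the transcription and mRNA factors. Of 4 mitoribosome proteins that carry other names 3 rose and 1 was not called, and their median was 1.02; after the length correction 1 of the 4 was higher and the median was 0.42. AURKAIP1 averaged 76.8 ± 15.7 CPM in corpuscles and 22.4 ± 2.49 CPM in skin, DAP3 averaged 67.5 ± 39.7 CPM in corpuscles and 28.7 ± 3.71 CPM in skin, and CHCHD1 averaged 50.4 ± 12.1 CPM in corpuscles and 28.7 ± 7.45 CPM in skin. Among 23 assembly factors 6 rose and 7 fell, or 26.1% and 30.4%, near the 33.0% and 23.5% of all genes tested. The assembly factors had a median log2 fold change of 0.19. YBEY, an endoribonuclease of ribosomal RNA maturation, averaged 13.9 ± 8.83 CPM in corpuscles and 2.51 ± 0.305 CPM in skin and rose. ERAL1, a GTPase that binds the small ribosomal RNA, averaged 5.32 ± 7.82 CPM in corpuscles and 35.2 ± 5.4 CPM in skin and fell. NOA1, a GTPase needed for assembly of the small subunit, averaged 3.15 ± 1.62 CPM in corpuscles and 14 ± 2.89 CPM in skin and fell. Also, TRUB2 and METTL15 rose and MALSU1 fell.

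Of 8 translation factors 3 rose, or 37.5% against 33.0% of all genes tested, and 5 were not called, with a median of 0.23. After the length correction 0 of the 8 were called by edgeR's quasi-likelihood test, with a median of 0.08, and at an unadjusted p under 0.05 1 was higher and 1 lower. MTIF3, an initiation factor, averaged 42.7 ± 28.7 CPM in corpuscles and 16.3 ± 1.44 CPM in skin; MTRF1, a release factor, and MTFMT, which formylates the initiator tRNA, rose as well. Of 17 aminoacyl-tRNA synthetase and amidotransferase genes 2 rose and 6 fell, against 33.0% and 23.5% of all genes tested, with a median of 0.20. GATB and GATC encode subunits of the same amidotransferase, which makes glutaminyl-tRNA in mitochondria. GATB averaged 27.8 ± 17.8 CPM in corpuscles and 10.9 ± 1.32 CPM in skin and rose, whereas GATC averaged 6.29 ± 3.1 CPM in corpuscles and 42.8 ± 4.01 CPM in skin and fell. TARS2 rose, and IARS2 and SARS2 fell. Of 7 transcription and mRNA factors 2 fell, against 23.5% of all genes tested, and 5 were not called. Those that fell were PNPT1, a polynucleotide phosphorylase, which averaged 8.73 ± 6.72 CPM in corpuscles and 61.6 ± 8.52 CPM in skin, and TFAM, which packages mitochondrial DNA and averaged 18 ± 11.5 CPM in corpuscles and 59.1 ± 6.29 CPM in skin.

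General markers of mitochondria moved in both directions, 3 of 15 higher and 5 lower, with a median of 0.18. Their median length was 2117 bp. After the length correction 4 were higher and 6 lower, against 30.1% and 24.4% of all genes, with a median of -0.38. HSPE1, a mitochondrial chaperonin, averaged 308 ± 88.8 CPM in corpuscles and 70.3 ± 13.4 CPM in skin and rose, as did PHB and VDAC3. CS, the citrate synthase often used to gauge mitochondrial content, averaged 8.45 ± 5.15 CPM in corpuscles and 51 ± 3.53 CPM in skin and fell, as did the import proteins TOMM70 and TIMM50.

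Within the libraries that lay together on the second principal component, the direction held for most genes. Corpuscles 1 to 3 against skin 1 to 4 gave 39 higher and 4 lower, against 31.0% and 23.6% of all genes. Of these 4, 3 also fell with all libraries. MRPS9, not called with all libraries at -0.60, was lower at -1.54 (edgeR adjusted p = 0.0089). Corpuscles 4 and 5 against skin 5 and 6 gave 23 higher and 2 lower, against 24.5% and 9.82% of all genes. In the second of these splits 54 of the 65 log2 fold changes were above 0, as in the comparison of all libraries. MRPL3 was lower by 1.44 and by 1.43 on the log2 scale in the splits but was called in neither, with adjusted p-values of 0.060 and 0.20 by edgeR's quasi-likelihood test. The authors' deposited table gives 40 of the 65 as higher and 5 as lower in corpuscles, 44 of them with the same call and direction as here. Over all 16823 genes it gives 6177 as higher and 3743 as lower in corpuscles.

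The levels of these genes stood mostly above those of genes of unrelated organs, such as liver, pituitary and germ cells. In corpuscles 17 such genes had a 95th percentile of 7.08 FPKM, and 64 of the 65 mitochondrial ribosomal genes were above it. The exception was MRPL37, at 3.45 FPKM. All 42 that rose were above that percentile, as were 2144 of the 4826 genes called higher over all genes. A gene called higher is picked in part by its corpuscle level, so this is no separate support. The share of all genes above that percentile was not taken. The highest of the unrelated genes stood at 13.03 FPKM, and 56 of the 65 were above that; the 4 genes that fell, at 3.45 to 11.3 FPKM, were not. Of the unrelated genes 10 passed the filter for low counts and were tested. Of these, 7 were higher in corpuscles and 1 lower, with a median log2 fold change of 3.76. DAZL, FGA, PRL and TSHB averaged 0.011, 0.024, 0.10 and 0.14 CPM in skin, so they passed the filter through corpuscles only. The filter thus weighed this share and median towards corpuscles. The part of such expression in the other results was not tested.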

How the data were processed

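Bulk RNA was sequenced from 5 Meissner corpuscle and 6 bill skin libraries. The authors deposited whole-number read counts per gene, not normalized. They also deposited a signal that equals each count over a factor for its library, and FPKM values, which are that signal per kilobase of gene. Their deposited log2 fold changes run skin relative to corpuscle, and calls from their deposited p-value and false discovery rate are given here in terms of corpuscles. Per the submitters' processing notes STAR 2.7.7a, featureCounts with Subread 2.0.1, and edgeR 3.38.4 in R 4.2.1 were used, with CASAVA 1.8.2 and Trimmomatic 0.39. Not given in the sources used here are the genome build, annotation and strand setting.

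Counts were tested with edgeR 4.0.16 (filterByExpr, TMM factors, robust quasi-likelihood fit) over all 11 libraries, and p-values were adjusted by Benjamini-Hochberg over the 14638 genes that passed. CPM used TMM-scaled totals, and gene length was the normalized count over FPKM. Fold changes are corpuscle over skin on the log2 scale, and n is 5 corpuscle and 6 skin libraries for each mean ± SD. Each SE is the absolute log2 fold change over the square root of the quasi-likelihood F statistic. That fit takes a dispersion shared by both tissues, so the SE does not reflect their unequal spread. For the length correction, each library's log CPM was taken as a deviation from the midpoint of the tissue means. A smooth trend of this deviation on log length was removed before the fit. Alternatives were other scalings, filters, DESeq2, limma-voom, a test against a fold of 1.5, the replicate block, thinning, and leaving out libraries. The fit was tested on simulated data. No replicates agreed within sampling noise, with a lowest chi-square per degree of freedom of 11.6. No molecular identifiers are stated, so errors are given as the spread between libraries and not as counting error.

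Genes named with values were all members listed by earlier choice, the 5 most abundant per length of each subunit in each tissue, and the 6 highest and 6 lowest called in each subunit; in other lists up to 3 each way. The rule named 33 of the 65. The genes and lists were chosen with earlier results of these data known, and the classes with and without a bacterial counterpart were written after the values were seen, as were the splits by principal component. MRPL10, MRPL11, MRPS28, MRPS18B and MRPS30 were not analysed here. Of the 65 symbols 64 were found in RefSeq's Pekin duck genes, used only for neighbouring and overlapping genes.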

Additional observations from a re-analysis of the deposited data

Results flagged for a closer look

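The levels of all 65 genes and 3 of their sums and ratios were searched, per tissue, for a library far from the others of its group, and 9 of 136 groups of values held one. Chance gives such a library in about 1 in 20 groups. Corpuscle 4, the library with the smallest total count at 5766279, was that library 4 times. It was low in MRPS12, at 43.9 CPM against 81.3 to 91.5 CPM in the other corpuscles, and high in MRPS9 at 70.9 CPM, in MRPS21 at 47.6 CPM and in MRPS35 at 101.2 CPM. Skin 4 was that library 3 times, with MRPL13 at 17.4 CPM against 2.09 to 3.97 CPM in the other skin libraries, MRPL18 at 35.7 CPM and MRPL1 at 42.0 CPM. Corpuscle 5 was high in MRPL22, at 95.2 CPM, and corpuscle 3 was low in MRPS15, at 20.3 CPM.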

How the results depend on the processing

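Of the 46 called genes 16 kept their call and direction in all 28 alternatives, 14 higher and 2 lower. The same count over all called genes was not taken, so whether these genes keep their calls more or less often is not known. MRPL54 and MRPL47 changed sign, both only where length was corrected, and no gene was called in the opposite direction. Upper-quartile factors gave a median of 0.33 over all genes, against 0.18 as reported, and medians of 1.53 over the 65 genes and 1.58 over the large subunit. The stricter filter of 5 CPM gave medians of 1.67 over all 65, 1.71 large and 1.38 small, with 1 small gene lower, and thinning gave 1.55 over all 65 and 1.57 large, with 1 small gene lower. Without factors 4 large genes were lower, limma-voom gave 7 lower with 4 large, and the test against a fold of 1.5 gave 1 small gene lower. The counts from the stricter filter, thinning, no factors, limma-voom and the fold test are not set against calls over all genes. The length correction gave 9 lower with 7 large, and medians of 0.58 over all 65, 0.68 large and 0.53 small.

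Whether same-numbered libraries share birds or an isolation is not stated, and the correlations given next cannot settle it. Deviations of same-numbered libraries correlated between -0.18 and 0.18, and 0 of 5 corpuscles matched best the skin library of its own number. The replicate block gave 38 higher and 4 lower of the 65 genes, against 25.9% and 22.7% of all genes, and with the length correction the replicate block gave 19 higher, 12 large and 7 small, and 9 lower with 6 large, with medians of 0.57 over all 65, 0.63 large and 0.52 small; in that fit 23.3% of all genes were higher and 23.4% lower. The all-gene median was -0.047 by limma-voom, -0.041 with the replicate block and -0.15 with both block and length correction.

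Leaving out each library in turn gave 39 to 45 higher and 3 to 6 lower, 25 to 30 and 2 to 3 in the large subunit, 14 to 15 and 1 to 3 in the small subunit. The median of the 65 lay between 1.26 and 1.45. Over all genes the same fits gave 4428 to 5108 higher and 3088 to 3903 lower, against 4826 and 3437 with all libraries. Without corpuscles 4 and 5 the median of the 65 was 1.26. Corpuscles 1 to 3 against skin 1 to 4 gave 1 large gene lower. Corpuscles 4 and 5 against skin 5 and 6 gave 1514 of all genes lower, and 23 of the 65 higher, 15 large and 8 small, and 2 lower, 1 in each subunit.

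Genes without a call changed sign. MRPS22 stood at -0.013 without factors, -0.055 without a filter, -0.27 by limma-voom, -0.23 with the replicate block, -0.68 with length corrected, -0.93 with both, -0.22 without skin 5 and 6, and -0.022 in corpuscles 1 to 3 against skin 1 to 4. MRPL12 stood at -0.27, -0.21, -0.77 and -1.08 by limma-voom, block, length and both, at -0.67 without corpuscles 4 and 5, -0.023 without skin 5 and 6, and -0.62 in corpuscles 1 to 3 against skin 1 to 4. MRPL43 stood at -0.034 with the block, -0.35 with length corrected, -0.49 with both and -0.73 in corpuscles 4 and 5 against skin 5 and 6. With length corrected, and with the block too, MRPL15 stood at -0.25 and -0.37, and MRPS31 at -0.21 and -0.42. MRPL44 stood at 0.0044 without corpuscles 4 and 5, and MRPS2 at 0.11 in corpuscles 1 to 3 against skin 1 to 4. Leaving out each library in turn gave -0.41 to 0.34 for MRPL12, -0.14 to 0.27 for MRPL43 and -0.24 to 0.28 for MRPS22. The causes were not tested.

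The lowest count of these genes was 11. With all libraries thinned to the smallest, MRPS17 was no longer called (edgeR adjusted p = 0.052). Tissue and kit cannot be told apart, and the corpuscle libraries varied more than the skin libraries.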

Other observations

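MRPS11 and MRPL46 are neighbours in the RefSeq gene table of the Pekin duck, the single adjacent pair among the 65 genes, and were chosen for mention after their values were seen. MRPS11, a small-subunit counterpart of a bacterial protein, averaged 75.1 ± 7.12 CPM in corpuscles and 28.6 ± 2.69 CPM in skin, with a log2 fold change of 1.39. MRPL46, a large-subunit protein found only in mitochondria, averaged 38.3 ± 12.4 CPM in corpuscles and 17.2 ± 0.880 CPM in skin, with a log2 fold change of 1.16. Both rose by edgeR's quasi-likelihood test.

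Of the 65 genes, 17 overlap another coding gene there by whole gene span, MRPL43 with TWNK, the mitochondrial DNA helicase, and MRPL37 with CYB5RL among them. Without a stated use of strand, whether their reads were mixed is not known. Of these 17, 11 rose and 1 fell, with a median log2 fold change of 1.08. Of the other 48 genes 31 rose and 3 fell, with a median of 1.41. Among all genes tested 33.0% were higher and 23.5% lower. After the length correction 5 of the 17 were higher and 1 lower, with a median of 0.49. Of the 48, 26 were then higher and 8 lower, with a median of 0.70. Over all genes 30.1% were higher and 24.4% lower with that correction. Whether these sets differ was not tested.

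Which corpuscle library was highest or lowest differed from gene to gene. Corpuscles 1 to 5 were the highest of their tissue for 2, 14, 15, 17 and 17 of the 65 genes and the lowest for 12, 21, 5, 22 and 5. Corpuscle 4 was thus among the most frequent at both ends. It also had the smallest total count, 5766279 against 11241654 to 11886808 in the other corpuscles.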
